A study of Mus musculus with 6 samples.

Results

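The 10 genes of sebaceous gland differentiation and wax ester synthesis followed in the epidermis of newborn mice were Pparg, Mc5r, Cidea, Plin2, Scd1, Scd3, Soat1, Awat1, Awat2 and Fabp5. They were chosen by name, with earlier results of these data known. A probe was counted as theirs when the RefSeq accession printed for it in the scanner files mapped to 1 of these symbols. Of the 10 genes 8 had a probe, 10 probes in all of 41174, and the other two, Awat1 and Fabp5, were not analysed here. Of those 8 genes 7 had a probe whose signal cleared background (the scanner software's well-above-background mark) on 3 or more of the 6 arrays and were tested, among 12824 tested genes. The eighth, Mc5r, was not well above background on any array.

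The 3 AhRCA mice expressed an aryl hydrocarbon receptor (AhR), which as a rule needs a ligand to act as a transcription factor, altered to be constitutively active, under the keratin 14 promoter, which is active in basal keratinocytes and in the basal cells of hair follicles and sebaceous glands. The 3 WT mice were wild-type littermates. All 6 animals were at postnatal day 0 and of mixed strain, and each of 3 samplings gave 1 AhRCA mouse and 1 WT mouse, so that arrays with the same number form a littermate pair. RNA of whole epidermis was hybridized to 1-colour Agilent arrays, 1 array per animal, and fewer cells of a type cannot be told apart from less RNA per cell in such samples.

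The sebaceous gland is an appendage of the hair follicle whose cells fill with lipid droplets and burst to release sebum, a mix of triglycerides, wax esters and cholesterol esters. PPARγ, the nuclear receptor encoded by Pparg, drives the differentiation of sebocytes as it does that of fat cells. Stearoyl-CoA desaturases supply monounsaturated fatty acids, acyltransferases join fatty acids to cholesterol or to fatty alcohols, and droplet proteins coat the stored ester.

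Values below are normalized log2 intensities, that is log2 of the background-subtracted spot intensity minus the 75th percentile of the array, so that 0 is that percentile and 1 unit is a doubling. Levels of different probes are not comparable, since each probe binds its target with its own efficiency. Pairs 1 and 2 lay on slide 1 and pair 3 on slide 2, and the sex-linked transcripts also separated them. Xist, made from the inactive X chromosome, lay between 4.57 and 4.66 in AhRCA 1 and 2 and between 4.43 and 4.44 in WT 1 and 2. It stood at -7.14 in AhRCA 3 and at -4.20 in WT 3. The Y-linked gene Ddx3y showed the reverse, so slide, litter and sex changed together at pair 3, in both genotypes alike. On each array 56.2% to 61.3% of spots were well above background and 0 were saturated. All 7 tested markers of interfollicular keratinocytes, Krt5, Krt14, Krt1 and Krt10 among them, were measured, none passed the test (limma, Benjamini-Hochberg; 0 at an unadjusted p under 0.05), and their median log2 fold change was -0.01.

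In AhRCA epidermis 6 of the 7 tested genes fell: Soat1, Cidea, Pparg, Scd1, Awat2 and Plin2. The falls lay between 2.20-fold for Plin2 and 5.05-fold for Soat1, and 0 members rose (0 also at an unadjusted p under 0.05). Of all tested genes 211, or 1.65%, were lower and 0.53% higher by the same test (limma, two-sided, Benjamini-Hochberg, threshold 0.05), 2.18% in either direction. These 6 were well above background on all 6 arrays, with a median log2 fold change of -1.61, against 0.0040 for the 12056 tested genes so measured. The seventh, Scd3, entered the test only through its WT arrays, and its value is given below as a description. The groups did not overlap for these same 6 genes, with AhRCA lower in each, a pattern found in 8.84% of all tested genes. It follows that the 6 were lower in AhRCA than in the WT littermate in each of the 3 pairs, as were 20.1% of tested genes. Being implied by the lack of overlap, this is no separate support. In a fit that also carried the littermate pair as a block (the litter block) the 6 fell again. Scd3 passed there too, but was kept only through its WT arrays and is not counted. Under this block 2.81% of all genes were lower and 3.88% (497 genes) changed, against 279 genes without it. The count of members that fell was 2 without WT replicate 2, 3 without AhRCA replicate 2 and 3 on slide 1 alone. Over all tested genes 41, 52 and 95 were lower in these same fits, against 211 with all arrays. Soat1 and Cidea were called in each of 17 alternative settings.

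**Figure D1:**
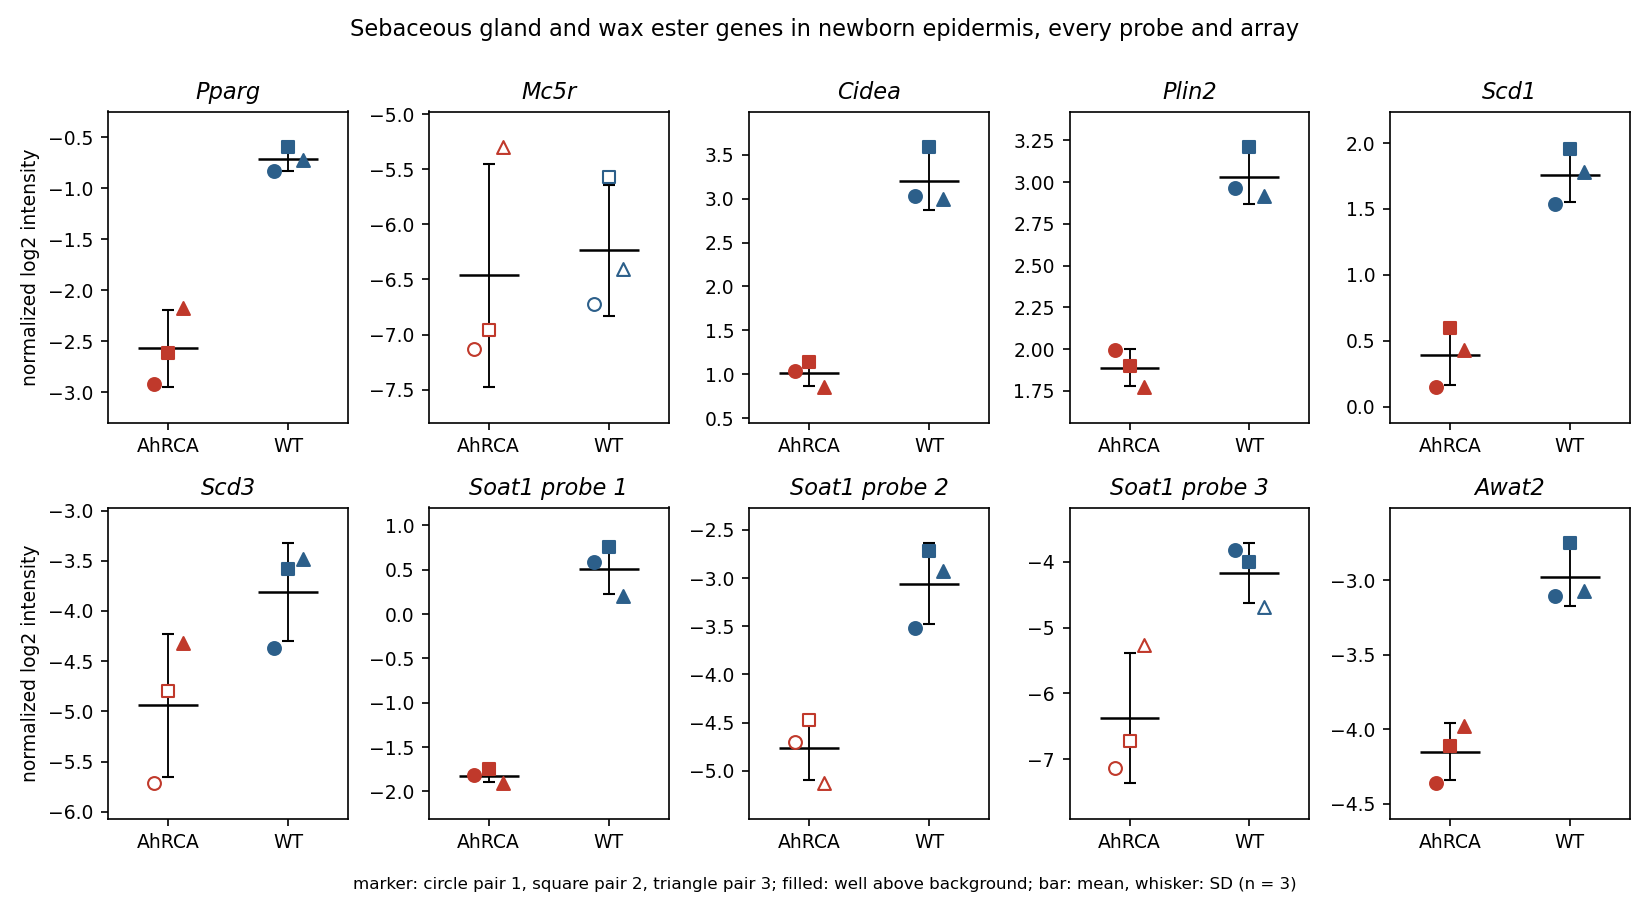
Normalized log2 intensity (y axis, scaled to each panel) of every probe of the 8 genes on the array, with the 3 AhRCA animals left of the 3 WT animals; marker shapes give the littermate pair, open markers are spots not well above background, bars are means and whiskers SD. In the probes of Pparg, Cidea, Plin2, Scd1, Soat1 and Awat2 used for the test, the 3 AhRCA values lie below all 3 WT values, while those of Mc5r overlap and are all open.

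Since AhR and PPARγ both act by binding DNA, the 250 bases before their annotated start sites were read from RefSeq windows of build GRCm38.p6. They were searched on both strands for GCGTG, the core of the AhR response element, for its longer form TNGCGTG, which contains the core, and for a direct repeat of AGGTCA with 1 base of any kind between the copies, which PPAR and RXR bind and which does not contain the core. By symbol, 9 windows matched 6 of the 10 members. No window was searched for Cidea and Scd1, which are among the called genes, or for Mc5r and Fabp5. The core was in 4 of the 9 windows, 1 each of Soat1, Plin2, Pparg and Awat2, against 28.2% of all 32851 windows. The longer form was in 0 of the 9 windows (4.1% of all) and the direct repeat in 0 (0.0335% of all). The 4 windows with a core match are printed 5′ to 3′ on the strand of the gene, ending at the base before the start site, with the matches in capitals.
Soat1, chr1:156474329-156474578, minus strand: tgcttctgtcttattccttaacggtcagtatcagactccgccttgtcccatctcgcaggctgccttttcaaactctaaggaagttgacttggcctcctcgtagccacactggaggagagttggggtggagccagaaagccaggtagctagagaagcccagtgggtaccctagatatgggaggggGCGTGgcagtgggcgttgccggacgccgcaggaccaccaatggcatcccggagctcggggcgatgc
Plin2, chr4:86670060-86670309, minus strand: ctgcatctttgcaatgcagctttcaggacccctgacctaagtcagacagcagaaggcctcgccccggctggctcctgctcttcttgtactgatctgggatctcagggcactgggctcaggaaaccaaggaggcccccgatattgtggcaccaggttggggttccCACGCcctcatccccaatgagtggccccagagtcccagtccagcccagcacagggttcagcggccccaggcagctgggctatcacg
Pparg, chr6:115360894-115361143, plus strand: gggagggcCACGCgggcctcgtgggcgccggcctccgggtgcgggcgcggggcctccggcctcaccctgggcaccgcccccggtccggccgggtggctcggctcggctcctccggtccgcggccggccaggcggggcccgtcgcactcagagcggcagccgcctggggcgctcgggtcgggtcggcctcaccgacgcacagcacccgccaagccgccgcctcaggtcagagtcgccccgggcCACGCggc
Awat2, chrX:100412588-100412837, minus strand: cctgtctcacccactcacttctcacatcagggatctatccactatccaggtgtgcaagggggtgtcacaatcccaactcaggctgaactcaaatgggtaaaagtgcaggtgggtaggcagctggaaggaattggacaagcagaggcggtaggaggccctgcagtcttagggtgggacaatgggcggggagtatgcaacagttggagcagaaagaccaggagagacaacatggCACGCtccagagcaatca
The match in Soat1 runs from base -66 to -62 on the strand of the gene, and that in Plin2 from -86 to -82 on the opposite strand. Pparg has a match at -242 to -238 and another at -8 to -4, both on the opposite strand, in a window whose GC content is 82.4%. The other two Pparg windows, at 63.6% and 40.8% GC, hold no core, nor do the other Awat2 window and those of Scd3 and Awat1. Awat2 has its match at -18 to -14. Core letters occurred both before Plin2 and Awat2, the genes with the smallest called falls in the test above, and before Soat1, the gene with the largest. Each called gene with a window held a core match, so falls could not be compared with those of called genes without one.

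Pparg, the regulator among the members, was read by probe A_51_P106799, printed at 10 spots on each array. It stood at -2.92, -2.61 and -2.17 in AhRCA 1 to 3 and at -0.83, -0.60 and -0.72 in WT 1 to 3. All AhRCA values were below all WT values, and the AhRCA animals were spread more widely, with a mean of -2.57 ± 0.38 against -0.72 ± 0.12 in WT (SD, n = 3 each). The SD between the spots of 1 array was between 0.0557 and 0.137 in AhRCA and between 0.0399 and 0.0641 in WT, less than the SD between animals of the same genotype. Pparg fell by 1.85 on the log2 scale (SE 0.20, 3.61-fold, adjusted p = 0.0105, limma, Benjamini-Hochberg). The pairs differed by -2.09, -2.01 and -1.45, the smallest of them in pair 3. With normexp background correction its log2 fold change was -1.37. Its call was lost without AhRCA replicate 2 (adjusted p = 0.0610) or WT replicate 2 (adjusted p = 0.0504).

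Mc5r encodes the melanocortin 5 receptor, known in mice for its role in sebum secretion. Its 1 probe, A_51_P103912, stood at -7.13, -6.96 and -5.30 in AhRCA 1 to 3 and at -6.73, -5.57 and -6.41 in WT 1 to 3. None of these spots was well above background, the groups overlapped, and no fold is given. The lowest signal well above background on an array lay between -5.19 and -4.77 in AhRCA and between -5.24 and -4.81 in WT.

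Both droplet protein genes, Cidea and Plin2, fell. Cidea, whose product promotes the fusion of lipid droplets, stood at 1.03, 1.14 and 0.86 in AhRCA 1 to 3 and at 3.03, 3.58 and 2.99 in WT 1 to 3 (probe A_51_P199168). The groups lay far apart, and WT 2 was the highest array. Cidea fell by 2.19 on the log2 scale (SE 0.19, 4.58-fold, adjusted p = 0.00500, limma, Benjamini-Hochberg), with pair differences of -2.0, -2.44 and -2.14. Plin2, a coat protein found on lipid droplets of most cell types, stood at 1.99, 1.90 and 1.77 in AhRCA 1 to 3 and at 2.96, 3.21 and 2.91 in WT 1 to 3 (probe A_51_P258150). Its groups were narrow and did not overlap. Plin2 fell by 1.14 (SE 0.13, 2.20-fold, adjusted p = 0.0113, limma, Benjamini-Hochberg), with pair differences of -0.97, -1.31 and -1.14. The 95% interval of the fall ran from -1.44 to -0.84 for Plin2 and from -2.64 to -1.75 for Cidea, and these did not overlap. The Plin2 call was lost without AhRCA replicate 2 (adjusted p = 0.0610), without WT replicate 2 (0.0504) and on slide 1 alone (0.0516).

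Scd1 and Scd3 encode stearoyl-CoA desaturases, of which Scd3 is known in mice from sebocytes. Scd1 stood at 0.15, 0.60 and 0.43 in AhRCA 1 to 3 and at 1.54, 1.95 and 1.78 in WT 1 to 3 (probe A_52_P682382). Animals with the same number deviated alike from their group means, so that the pair differences, -1.39, -1.36 and -1.35, were nearly equal. Scd1 fell by 1.37 (SE 0.17, 2.58-fold, adjusted p = 0.0140, limma, Benjamini-Hochberg), with a SE of 0.078 under the litter block. Its call was lost without AhRCA replicate 1 (adjusted p = 0.0508), AhRCA replicate 3 (0.0518) or WT replicate 2 (0.0638), and on slide 1 alone (0.0913).

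Scd3 stood at -5.71, -4.79 and -4.32 in AhRCA 1 to 3 and at -4.37, -3.58 and -3.49 in WT 1 to 3 (probe A_51_P446045). The groups overlapped, since AhRCA 3 was above WT 1. The probe was well above background on 1 of 3 AhRCA arrays and on 3 of 3 WT arrays, so it entered the test through WT. The log2 fold change was -1.13 ± 0.40 (SE) and did not pass (adjusted p = 0.294, limma, Benjamini-Hochberg), with a 95% interval from -2.08 to -0.18. The pair differences were -1.34, -1.21 and -0.83, and under the litter block Scd3 passed (SE 0.13, adjusted p = 0.0251). With normexp background correction its log2 fold change was -0.31. Scd1 and Scd3 are close paralogues, the probe sequences were not used here, and signal shared between their probes cannot be told apart.

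Soat1, which joins fatty acids to cholesterol, had the largest fall of the members with the scaling and brightest probe used for the test. It stood at rank 37 from the lowest log2 fold change among all tested genes. Its brightest probe, A_51_P391754, stood at -1.81, -1.75 and -1.90 in AhRCA 1 to 3 and at 0.58, 0.76 and 0.20 in WT 1 to 3. The AhRCA values lay close together, with a mean of -1.82 ± 0.08, all below the WT values, with a mean of 0.51 ± 0.28 (SD, n = 3 each). Soat1 fell by 2.34 (SE 0.16, 5.05-fold, adjusted p = 0.00196, limma, Benjamini-Hochberg), with pair differences of -2.40, -2.51 and -2.10.

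The other two Soat1 probes were dimmer and also lower in AhRCA in each of the 3 pairs. Probe A_52_P642167 stood at -4.71, -4.47 and -5.12 in AhRCA 1 to 3 and at -3.52, -2.72 and -2.93 in WT 1 to 3. It was well above background on 0 AhRCA arrays and on 3 WT arrays. Its fold is therefore given as a floored ratio, 3.27-fold lower in AhRCA, which is no guaranteed minimum. The pairs differed by -1.18, -1.76 and -2.19. In a fit across 24005 kept probes, of which 1.1% changed and 0.812% were lower, its adjusted p was 0.0450 (limma, Benjamini-Hochberg). It was kept only through its WT arrays, so this p is no separate support for the fall. Such a floored ratio sets the WT mean against, on each AhRCA array, the higher of the probe's own value and the lowest signal well above background. For this probe the own value was the higher on each AhRCA array, so the ratio is that of the plain group means. Probe A_52_P651833 stood at -7.14, -6.72 and -5.26 in AhRCA 1 to 3 and at -3.83, -4.01 and -4.69 in WT 1 to 3. It was well above background on 0 AhRCA and 2 of 3 WT arrays, was not tested, and by its floored ratio was 1.76-fold lower in AhRCA.

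Awat2, an acyl-CoA wax alcohol acyltransferase that makes wax esters in mouse skin, stood at -4.36, -4.11 and -3.97 in AhRCA 1 to 3 and at -3.10, -2.75 and -3.07 in WT 1 to 3 (probe A_51_P474151). The signal was low but well above background on all 6 arrays, and the groups did not overlap. Awat2 fell by 1.17 (SE 0.15, 2.26-fold, adjusted p = 0.0182, limma, Benjamini-Hochberg), with pair differences of -1.26, -1.36 and -0.90. Its log2 fold change was -0.49 with normexp background correction (adjusted p = 0.0622). Its call was also lost without AhRCA replicate 1 (adjusted p = 0.0662), AhRCA replicate 2 (0.0861) or WT replicate 2 (0.0704), and on slide 1 alone (0.0716).

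**Figure D2:**
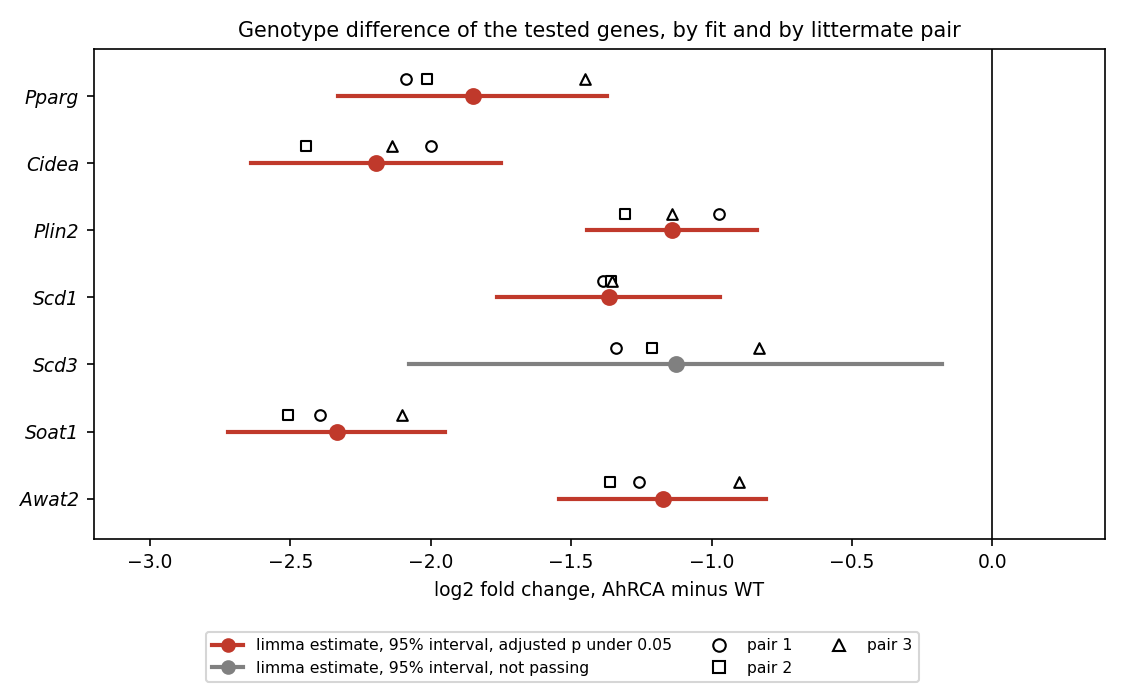
Log2 fold change, AhRCA minus WT (x axis), of the 7 tested genes: filled points are limma estimates with 95% intervals, in red where the adjusted p was under 0.05 and in grey for Scd3, and open markers above them are the differences within each littermate pair. All estimates and all pair differences lie below 0, and the intervals of Soat1 and Cidea lie below those of Plin2 and Awat2.

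Pair 3 showed a smaller difference than the mean of pairs 1 and 2 for most members. On slide 2 and slide 1 the differences were -1.45 and -2.05 for Pparg, -2.10 and -2.45 for Soat1, -2.14 and -2.22 for Cidea, -0.90 and -1.31 for Awat2, and -0.83 and -1.28 for Scd3. For Plin2 they were -1.14 on both, and for Scd1 -1.35 and -1.37. A test of the difference between slides (limma interaction term, Benjamini-Hochberg) called 0 members, 0 also at an unadjusted p under 0.05, and 0.0078% of all genes. The adjusted p was lowest for Pparg, at 0.525, where the 95% interval of the difference between slides ran from -0.14 to 1.34. For Plin2 the interval ran from -0.56 to 0.56 and for Scd3 from -1.59 to 2.48, so differences of these sizes could not be told from 0 with 1 pair on slide 2.

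Over the 6 arrays the members followed Pparg with Pearson r of 0.99 for Awat2, 0.974 for Scd1, 0.958 for Soat1, 0.952 for Cidea, 0.937 for Plin2 and 0.87 for Scd3. These arrays share 2 genotypes and 3 litters, and the r values are descriptions. Among 12050 other genes whose signal cleared background on each of the 6 arrays, the 5 closest to Pparg were Igfbp5, Slc27a1, Elovl3, Syt7 and Entpd6, with r between 0.993 and 0.999. Igfbp5, a binding protein of insulin-like growth factors, fell by 1.5 (SE 0.15, adjusted p = 0.00851, limma, Benjamini-Hochberg). Slc27a1, a fatty acid transporter, fell by 0.61 (SE 0.10, adjusted p = 0.0402), and Syt7, a synaptotagmin, fell by 1.31 (SE 0.13, adjusted p = 0.00809). Slc27a1 lost its call whichever single array was left out (adjusted p up to 0.181) and Igfbp5 without AhRCA replicate 2 (0.0514) or WT replicate 2 (0.0504). Entpd6 had a log2 fold change of -0.30 ± 0.10 (SE) and did not pass (adjusted p = 0.246). These genes were picked for their likeness to Pparg, which differed between the genotypes on the same arrays. A difference in the same direction was built into that choice, so these falls and p-values are descriptions and no separate support.

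Related genes were counted in 8 lists. Among sebocyte regulators and markers 0 of 10 tested genes passed (limma, Benjamini-Hochberg), 4 had an unadjusted p under 0.05, and the list's median log2 fold change was -0.17. Under the litter block 1 fell. That gene was Krt79, a keratin of the sebaceous duct and the upper follicle, which stood at 6.14 ± 0.09 in AhRCA and 6.76 ± 0.14 in WT (SD, n = 3 each), with a log2 fold change of -0.63 ± 0.12 (SE) and an adjusted p of 0.0602 without the block and 0.0317 with it. Gata6, a transcription factor of the duct, had -1.20 ± 0.22 (adjusted p = 0.0543), and its groups did not overlap. Gata6 passed in 7 of 17 alternative settings (adjusted p between 0.0112 and 0.189 over the 17), and the list's count of genes that fell was up to 3 under them. Mgst1, a microsomal glutathione transferase, and Krt7, a keratin of simple and glandular epithelia, had -0.61 ± 0.14 (adjusted p = 0.0901) and -0.49 ± 0.17 (0.295), with groups that did not overlap. Prdm1, linked to sebaceous progenitors in mice, Lrig1, a stem cell marker of the gland's junction, and Cebpa, a partner of PPARγ in fat cells, had -0.21, 0.03 and -0.01. These 5 genes were chosen after their values were seen.

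In the list of ester synthesis and elongation 1 of 10 tested genes fell and 0 rose, with a median of -0.15. It was Elovl3, which lengthens fatty acids and is known from mouse sebaceous glands, and which stood at -3.86, -3.62 and -2.93 in AhRCA 1 to 3 and at -0.29, 0.54 and 0.05 in WT 1 to 3. The fall was larger than that of any of the 7 members. Elovl3 fell by 3.57 (SE 0.30, adjusted p = 0.00497, limma, Benjamini-Hochberg), and fell by 2.63 with normexp background correction. The triglyceride synthase genes Dgat1 and Dgat2 had -0.14 ± 0.19 and -0.0046 ± 0.13 (SE), and Far2, which makes fatty alcohols for wax esters, had -0.33 ± 0.39. None of these 3, chosen after their values were seen, passed. Dgat2l6 and Far1 were not analysed here.

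Among desaturases other than the members 1 of 6 tested genes fell, with a median of -0.26. It was Fads3, of the fatty acid desaturase family, which fell by 1.77 (SE 0.18, adjusted p = 0.00851, limma, Benjamini-Hochberg) and stood at -0.69, -0.48 and -0.47 in AhRCA 1 to 3 and at 0.89, 1.52 and 1.27 in WT 1 to 3. Its call was lost on slide 1 alone (adjusted p = 0.0750). Scd2, the paralogue of Scd1 that is broadly expressed in mouse epidermis, had -0.45 ± 0.18 (SE, adjusted p = 0.391) and was chosen after its value was seen. Among other lipid droplet proteins 1 of 10 passed as lower and 2 under the litter block, with a median of -0.17. Plin4 and G0s2, the genes so counted, were kept only through their WT arrays. With only genes well above background on all 6 arrays, 0 of 7 in this list fell. Plin4, a droplet coat protein, had a log2 fold change of -2.87 (SE 0.34, adjusted p = 0.0136, limma, Benjamini-Hochberg). Its signal cleared background on 1 of 3 AhRCA arrays and 3 of 3 WT arrays. It entered the test through WT, so its value is a description. With normexp background correction its log2 fold change was -1.33. It lost its call on slide 1 alone (adjusted p = 0.0716), without AhRCA replicate 1 (0.0536) or without AhRCA replicate 2 (0.0627). G0s2, an inhibitor of triglyceride lipase, cleared background on 0 AhRCA arrays and 3 WT arrays, and by its floored ratio was 2.65-fold lower in AhRCA. Its limma adjusted p was 0.0622 without and 0.0370 with the block, and its value is a description. Hsd17b11, of the same list, went the other way, with 0.46 ± 0.14 (SE, limma adjusted p = 0.209) and every AhRCA value above every WT value. Of the 10 genes 7 had a negative log2 fold change. G0s2 and Hsd17b11 were chosen after their values were seen.

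Of 13 tested PPAR receptors, partners and PPARγ targets 1 fell and 3 under the litter block, with a median of -0.12. Gpd1, the cytosolic glycerol-3-phosphate dehydrogenase, fell by 2.76 (SE 0.29, adjusted p = 0.0104, limma, Benjamini-Hochberg), with its call lost on slide 1 alone (adjusted p = 0.0697). With normexp background correction its log2 fold change was -1.98. Lpl, lipoprotein lipase, and Ppargc1a, a coactivator, did not pass (adjusted p = 0.153 and 0.143) but did under the litter block (0.0225 and 0.0353). Ppargc1a cleared background on 1 of 3 AhRCA arrays and 3 of 3 WT arrays. It entered the test through WT, so its value is a description. The related receptors Ppara and Ppard and the partner Rxra had 0.15 ± 0.18, 0.04 ± 0.26 and -0.12 ± 0.11 (SE), and none passed. The other tested targets, Cd36, Pdk4, Angptl4 and Acsl1, had -0.95 ± 0.30, -0.11 ± 0.26, 0.07 ± 0.18 and 0.13 ± 0.15 (SE), and none passed. Of the 13 genes 8 had a negative log2 fold change. Ppargc1a, Ppara, Ppard, Rxra and these other targets were chosen after their values were seen. Of the melanocortin system 0 of 6 passed (0 at an unadjusted p under 0.05), with a median of -0.22, and the largest changes were -0.45 ± 0.25 for Mc1r, the pigment cell receptor, and -0.32 ± 0.19 for Agrp, which encodes agouti-related peptide. Of the fatty acid binding proteins 0 of 5 passed (0 at an unadjusted p under 0.05), with a median of -0.37. Fabp4 had -0.91 ± 0.46 and Fabp12 had -0.51 ± 0.24.

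Of 12 genes of fatty acid and sterol synthesis 0 passed (limma, Benjamini-Hochberg; 0 at an unadjusted p under 0.05), also under the litter block, and the median was -0.08. The largest changes were -0.36 ± 0.29 (SE) for Mvd and -0.28 ± 0.26 for Insig1. Srebf1, a transcription factor of lipogenesis, had 0.10 ± 0.18 and was chosen after its value was seen. Every list's count can be set against the 1.65% of all genes that were lower.

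**Figure D3:**
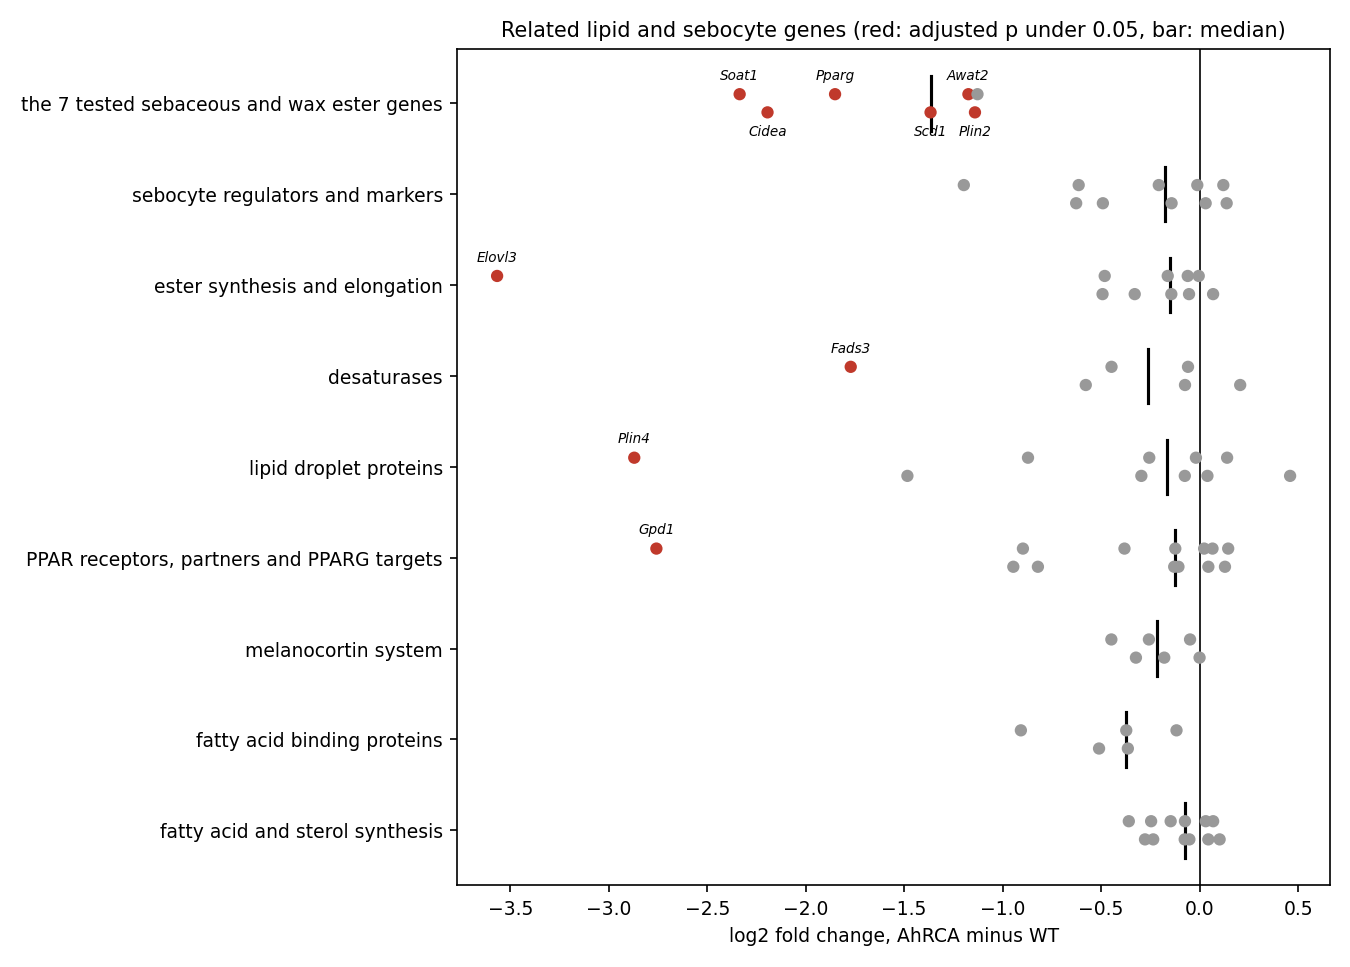
Log2 fold change, AhRCA minus WT (x axis), of every tested gene in 8 lists of related genes, below the 7 tested sebaceous and wax ester genes in the top row; each point is a gene, red points passed at an adjusted p under 0.05 and black bars are medians. Each of 4 lists holds 1 red point (Elovl3, Fads3, Plin4 and Gpd1), and the medians of all 8 lists lie between -0.37 and -0.08, against -1.37 in the top row, which includes Scd3. Plin4, like Scd3, entered the test through its WT arrays.

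Markers of other cell types were measured on the same arrays. Of 8 adipocyte markers, which share PPARγ targets with sebocytes, 3 were tested, 0 passed (1 at an unadjusted p under 0.05) and 1, Lpl, fell under the litter block. Fabp4 and Lpl had the largest log2 fold changes, -0.91 and -0.82. The summed linear level of the 3 tested markers, in units of the 75th percentile of the array, was between 0.728 and 1.84 in AhRCA and between 1.45 and 2.54 in WT. Since levels of different probes are not comparable, such a sum, here and below, mainly follows the brightest probes. The defining marker Adipoq was well above background on 0 AhRCA arrays and 2 WT arrays, Plin1 on 1 of 3 in each, Cidec on 0 AhRCA and 2 WT arrays, and Lep on 0 of 6. Of 11 tested hair follicle markers 2 fell, and 4 under the litter block, with a median of -0.44. Their summed level was between 412 and 478 in AhRCA and between 579 and 767 in WT. It was led by the bright probes of Krt17, Krt15 and Krt71, with WT means of 7.76, 7.52 and 7.24, and does not describe all 11 markers. Lgr5, a follicle stem cell marker, fell by 0.83 (SE 0.11, adjusted p = 0.0199, limma, Benjamini-Hochberg) and Krt15, a keratin of the follicle bulge and of basal keratinocytes, by 0.72 (SE 0.13, adjusted p = 0.0460). Each call was lost in 5 of the 6 fits that left out 1 array (adjusted p up to 0.107 for Lgr5 and 0.194 for Krt15). Krt15 did not pass under the litter block (adjusted p = 0.0534). Krt27, Krt71 and Krt25, keratins of the inner root sheath of the hair follicle, had larger log2 fold changes of -1.25 ± 0.34, -1.24 ± 0.32 and -1.12 ± 0.31 (SE), with groups that did not overlap. They did not pass without the block (adjusted p = 0.161, 0.135 and 0.162) and fell under it (0.0184, 0.0117 and 0.0378), and were chosen after their values were seen. The remaining tested follicle markers, Hoxc13, Msx2, Krt17, Lhx2, Foxn1 and Shh, had -0.44, -0.16, -0.09, 0.06, 0.12 and 0.16. None of them passed, with or without the block, and they too were added after their values were seen.

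Of 4 tested Merkel cell markers 3 passed, 1 of them, Piezo2, through its WT arrays. The median log2 fold change was -1.92, or -1.74 with Piezo2 at its floored ratio, and the summed level was between 0.408 and 0.618 in AhRCA and between 1.38 and 2.19 in WT. Krt20 and Krt8, keratins of these touch-sensing cells, fell by 2.61 and 2.08 (SE 0.26 and 0.23, adjusted p = 0.00820 and 0.0108, limma, Benjamini-Hochberg). With normexp background correction Krt20 fell by 1.44. When WT replicate 2 was left out Krt8 did not pass (adjusted p = 0.0504), which left 1 of the 4 markers lower, nor did it on slide 1 alone (0.0595). The tested probe of the ion channel gene Piezo2 cleared background on 0 AhRCA and 3 WT arrays and by its floored ratio was 2.12-fold lower in AhRCA. Its call (limma adjusted p = 0.0474) was lost under the litter block (adjusted p = 0.0672) and whichever single array was left out (up to 0.176). With normexp background correction its log2 fold change was -0.44 (adjusted p = 0.198). Of 5 fibroblast markers 0 passed (1 at an unadjusted p under 0.05), with a median of 0.31, and the largest changes were -1.19 ± 0.23 (SE) for Col1a2 and 0.85 ± 0.68 for Col3a1. Of 4 T cell markers 0 passed (2 at an unadjusted p under 0.05), with a median of -0.60, and Cd3d and Cd3g had -1.24 ± 0.51 and -1.03 ± 0.48. The 2 with an unadjusted p under 0.05 were Cd3d and Ptprc, which encodes the leukocyte surface protein CD45 and had 0.40 ± 0.16, with every AhRCA value above every WT value. Ptprc was chosen after its value was seen. Of 3 melanocyte markers 0 passed (0 at an unadjusted p under 0.05), with a median of 0.03, and Tyrp1 and Pmel had 0.33 ± 0.19 and 0.03 ± 0.18. For the 5 endothelial markers 0 probes cleared background on any array. The part of hair follicle, Merkel cell or adipocyte content in the falls of the sebaceous genes was not tested.

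**Figure D4:**
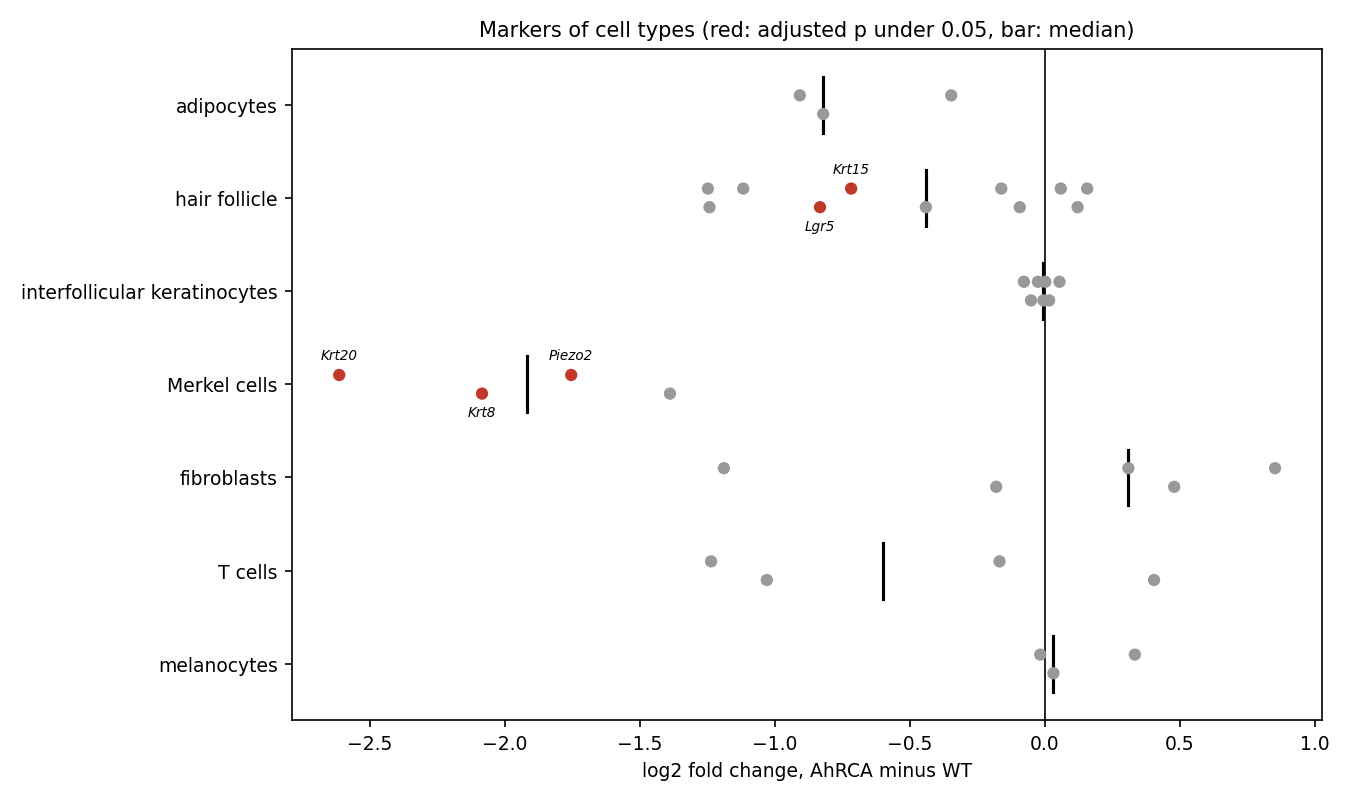
Log2 fold change, AhRCA minus WT (x axis), of every tested marker of 7 cell types; each point is a gene, red points passed at an adjusted p under 0.05 and black bars are medians. Red points occur among hair follicle (Lgr5, Krt15) and Merkel cell markers (Krt20, Krt8, Piezo2), while the interfollicular keratinocyte markers lie close to 0.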

How the data were processed

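The scanner files hold spot intensities deposited by the authors, which per the file headers Agilent Feature Extraction 10.7.3.1 made by subtracting the local background and removing spatial trends on each array, with no scaling between arrays. Per the labels' protocols, RNA was extracted with a spin-column kit and labelled with Cy3. The authors' deposited series table holds log2 values of 41267 probes, whose differences between arrays followed those of the scanner values with a slope of 1, so its scale is log2 and its direction that of the intensities. Its steps of centring and scaling are not given in the sources used here, and its column medians were 0.028, 0.064 and -0.071 in AhRCA 1 to 3 and -0.070, -0.050 and 0.083 in WT 1 to 3.

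From the intensities, log2 values were taken and the 75th percentile of the same array, without control spots, was subtracted. Control spots (1639 of 45018) and 56 to 94 outlier spots per array were left out, and spots of a probe were averaged. Symbols came from unversioned RefSeq accessions through a GRCm38.p6 table: of 41174 probes 26690 matched 1 symbol, 0 several and 14484 none. Probes that cleared background on 3 or more of 6 arrays were kept (24005, 18648 of them named), and the brightest probe stood for its gene, giving 12824 genes. Genotypes were compared with limma 3.58.1 (R 4.3.3, prior degrees of freedom 2.62, two-sided, Benjamini-Hochberg over all genes, threshold 0.05). The 3 arrays per group limit the precision.

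Alternatives were the litter pair or the slide as a block, slide 1 alone, quantile and median scaling, normexp background correction (offset 50), other filters, other uses of a gene's probes, the deposited table, and each array left out. The planned normexp input, the mean spot signal, was not a column here, so the median spot signal took its place. Pairing comes from the littermate samplings in the study design. Deviations from group means correlated at 0.337, 0.372 and 0.55 for same-numbered arrays and between -0.416 and 0.194 for others, over 12821 genes, and the numbers were taken as pairs.

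Named genes were all members, up to 4 called genes of each list with the largest change, or 2 where none was called, and the 5 genes closest to Pparg; others are marked in the text. Members and lists were chosen with earlier results of these data known. The lists were sebocyte regulators and markers, ester synthesis and elongation, desaturases, lipid droplet proteins, PPAR receptors and targets, melanocortin system, fatty acid binding proteins, fatty acid and sterol synthesis, and markers of adipocytes, hair follicle, interfollicular keratinocytes, Merkel cells, fibroblasts, endothelium, T cells and melanocytes.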

Additional observations from a re-analysis of the deposited data

How the results depend on the processing

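The number of members that fell was 6, also 6 with the slide as a block, and 3 on slide 1 alone. Under the replicate block (litter pair) the same 6 fell. Scd3 passed there too, but entered the test only through its WT arrays and is not counted. The number was 5 with normexp background correction and 6 under the other settings that kept all arrays. Without single arrays it was between 2 and 6. The 7 tested members kept a negative log2 fold change in every setting in which they were tested. The block changed the call of 1 member, Scd3. Over all genes 279 changed, with 497 under the replicate block, 539 with the slide as a block, 130 on slide 1 alone, 132 with no filter on dim probes and between 62 and 195 without single arrays. The slide difference of the genotype effect called 0 members in each of the 5 alternatives run. Across the alternatives the number of genes that fell was 0 to 3 for sebocyte regulators and markers, 0 to 2 for droplet proteins, 0 to 3 for PPAR genes, 0 to 4 for hair follicle markers and 1 to 3 for Merkel cell markers. Small changes turned sign for Ivl (0.13 on slide 1 alone, and between -0.21 without WT replicate 1 and 0.12 without WT replicate 3), Pmel (-0.093 on slide 1 alone, -0.0014 without AhRCA replicate 1, -0.15 without WT replicate 3) and Insig1 (between -0.50 without AhRCA replicate 1 and 0.023 without AhRCA replicate 3). None of these was called, and the cause was not tested. Dim probes limit Scd3, Mc5r, Awat2 and 2 of the Soat1 probes, whose signals lie near the background.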
